A study of Mus musculus with 15 samples.

Results

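Immature macrophages were compared with the non-adherent bone marrow precursors from which they were grown, across all genes of 1 count table. The 6 libraries compared, 3 of precursors and 3 of immature macrophages, were chosen by their column names and are part of a series of 15. All came from male C57BL/6 mice aged 8 to 10 weeks, and the titles give each group a mouse 1, a mouse 2 and a mouse 3. Precursors were non-adherent marrow cells kept for 2 days in 0.6 ng/ml colony-stimulating factor 1 (CSF-1) with 15% fetal calf serum. Immature macrophages had this step and then a further 4 days in 12 ng/ml CSF-1 with 10% serum. The labels call the precursors non-adherent and do not say whether the immature cells were. Both groups were thus cultured with CSF-1, and neither was sorted according to the labels. The CSF-1 dose, the days in culture and the serum all changed between the groups, so their parts in a difference cannot be told apart. Of 34245 genes in the table, 13359 had enough reads to be tested.

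CSF-1 is the main growth factor of the macrophage lineage. It binds the receptor CSF1R on marrow progenitors and monocytes and keeps them alive, drives their division and directs them to become macrophages. Macrophages adhere, spread and take up dead cells, microbes and lipoproteins, which they digest in acid lysosomes, while neutrophils, the other main product of myeloid progenitors, are short-lived cells packed with ready-made granules.

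The precursor libraries held 11136689 to 22167294 reads and the immature libraries 7897769 to 13724973. Levels are given as CPM, counts per 1000000 reads, with library totals scaled by TMM (a scaling on the bulk of genes). A level of at least 1 CPM was found for 12642 to 12657 genes in precursors and 11505 to 11567 in immature macrophages. On log2 CPM the precursor libraries correlated with each other by 0.972 to 0.979, the immature libraries by 0.959 to 0.982, and libraries of different groups by 0.774 to 0.819. Immature library 1 stood apart in dividing-cell genes. The summed level of 68 genes of DNA replication and mitosis was 1335 CPM there, against 4163 and 5833 CPM in immature libraries 2 and 3 and 7553 to 7774 CPM in precursors.

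The labels were checked against marker genes. The 6 markers of macrophages summed to 1446, 1626 and 1106 CPM in precursors 1 to 3 and to 8300, 5620 and 4368 CPM in immature macrophages 1 to 3. The precursors were a mixture, with 3588 to 4918 CPM of 6 neutrophil markers, 971 to 1276 CPM of 2 monocyte markers and 308 to 387 CPM of 4 progenitor markers. In immature macrophages these sums were 40.5 to 53.0, 123 to 187 and 2.60 to 4.09 CPM. Both markers of B cells, of erythroid cells and of mast cells and basophils were at 0 reads in all immature libraries. Megakaryocyte markers summed to 92.8 to 233 CPM in precursors and to 4.73 to 5.75 CPM in immature macrophages. In such bulk samples fewer cells of a type and less RNA per cell cannot be told apart. The part that these other cells had in the falls described below was not tested.

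**Figure D1:**
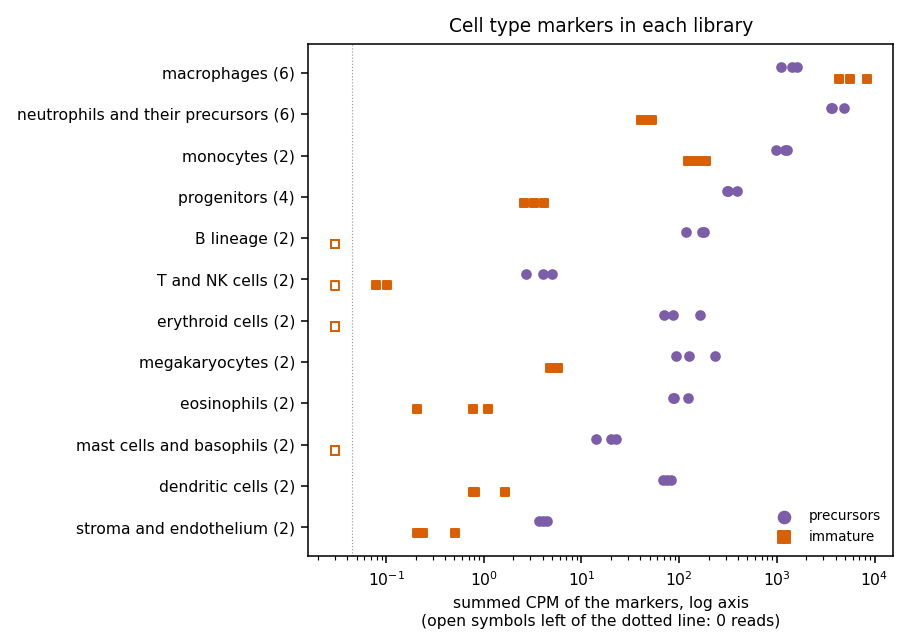
Summed level (CPM, log axis) of the markers of 12 cell types in each library, with the number of markers in brackets; circles are precursors, squares immature macrophages, and open symbols stand for 0 reads. The macrophage sum is the only 1 of the 12 that is higher in all 3 immature libraries (4368 to 8300 CPM) than in the precursors (1106 to 1626 CPM).

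Of the genes tested 49.2% passed an adjusted p under 0.05, with 22.5% higher and 26.6% lower in immature macrophages. Changes are given as log2 fold changes with their standard error (SE), where each unit is a doubling and a minus sign means lower in immature macrophages. The median over all genes tested was -0.07. For 65.0% of them the 3 libraries of a group did not overlap those of the other, and this held for each gene named here as risen or fallen except Mdh2. The genes at least 2-fold higher took 10.3 to 11.8% of reads in precursors and 30.9 to 39.5% in immature macrophages, whereas the genes at least 2-fold lower took 20.3 to 22.2% and then 3.62 to 4.88%. At the extreme, 296 tested genes had 0 reads in all 3 immature libraries, 43 of them at 10 CPM or more in precursors, while 54 had 0 reads in all precursors and none of those reached 10 CPM. The balance of the calls leaned on the scaling, since with library totals alone the median was -0.29, and 2226 genes were higher and 4366 lower in place of 3009 and 3559.

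**Figure D2:**
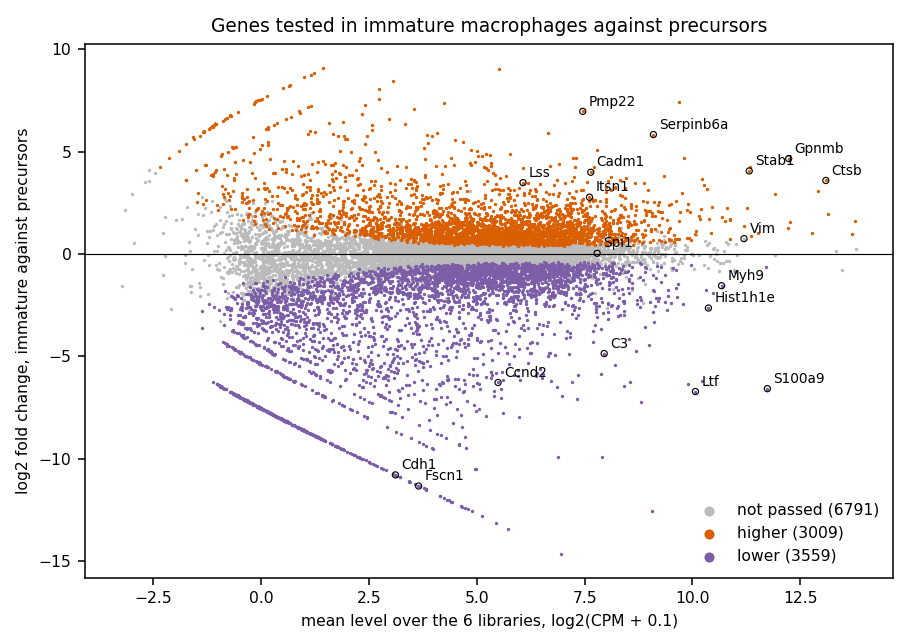
Each point is 1 of the 13359 genes tested, with its mean level over the 6 libraries (log2 of CPM + 0.1, x axis) and its log2 fold change (y axis); colours give the call. Points on the straight edges at the left and bottom are genes with 0 or few reads in 1 group, whose fitted fold change is no measure of size. Losses reach further down than gains reach up.

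Of 19 tested genes that define macrophages 18 rose and none fell (median 2.86), and 15 rose with library totals alone. Cd68, an endosomal glycoprotein of macrophages, rose by 2.33 ± 0.40, and their summed level went from 3568 to 6055 CPM in precursors to 32974 to 55858 CPM in immature macrophages. Itgam (CD11b), which neutrophils and monocytes share, did not pass (-0.44 ± 0.20, adjusted p = 0.0965), but it fell with library totals alone (-0.66, adjusted p = 0.0223), with DESeq2 (-0.47, adjusted p = 0.0444) and with limma on the deposited log2 RPM (-0.70, adjusted p = 0.0243).

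Lysosomal genes were among those that gained most reads. Ctsb (cathepsin B, a lysosomal protease, chr14:63122462-63145923) stood at 1392, 1778 and 845 CPM in precursors 1 to 3 and at 20999, 16013 and 11384 CPM in immature macrophages 1 to 3, a log2 fold change of 3.59 ± 0.41 (adjusted p = 5.68e-05). Psap, whose product is cut into the activators of lysosomal lipid breakdown (chr10:60277627-60302597), went from 3274, 3803 and 3978 to 20138, 12846 and 10018 CPM (1.96 ± 0.31, adjusted p = 0.000522). Gpnmb, a membrane glycoprotein of lysosomes and melanosomes (chr6:49036546-49070929), went from 376, 530.4 and 190.3 to 11198, 9327 and 7224 CPM (4.66 ± 0.47, adjusted p = 2.74e-05). In all 3 genes every immature library lay well above every precursor library, and immature library 1 was the highest. Groups did not overlap for 65.0% of all genes tested.

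Of 21 tested cathepsins and cystatins (the protease inhibitors that curb cathepsins), 12 rose and 6 fell, and the median was 1.96. The list summed to 8663 to 10931 CPM in precursors and to 41060.3 to 68811 CPM in immature macrophages. Ctsl, Ctss and Ctsz, proteases that cut proteins and antigens in endosomes, rose by 2.39 ± 0.36, 2.21 ± 0.33 and 1.84 ± 0.26. Ctso, a less studied cathepsin, went from 11.5, 12.6 and 12.2 to 64.8, 60.8 and 53.2 CPM, with little spread in either group. Not all cathepsins moved this way. Ctsc, which activates the proteases of neutrophil granules, did not pass (451, 402 and 258 against 717, 509.99 and 504 CPM, 0.64 ± 0.28, adjusted p = 0.0849). Cst7, an inhibitor found in cytotoxic and myeloid cells, fell from 8.3, 9.73 and 7.71 to 0.63, 0.921 and 1.02 CPM, and Stfa2l1, a stefin of the neutrophil lineage, was at 7.97, 13.4 and 15.7 CPM in precursors and fell at least 125-fold, to 0 reads.

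The vacuolar ATPase (V-ATPase), the pump that acidifies lysosomes, rose nearly as a whole. Of 19 tested subunits and accessory proteins 17 rose, with a median of 1.34, and their sum went from 1948 to 2119 CPM in precursors to 5226 to 5879 CPM in immature macrophages. Atp6v1a, a catalytic subunit, stood at 248, 227 and 212 CPM in precursors and 1223, 1289 and 1041 CPM in immature macrophages (2.37 ± 0.21, adjusted p = 1.35e-05). Tcirg1, the subunit that places the pump in osteoclast and macrophage membranes, went from 229, 245 and 227 to 1163, 931 and 827 CPM (2.06 ± 0.19). Its relative Atp6v0a2 did not pass (86.5, 87.4 and 82.3 against 67.8, 64.4 and 75.5 CPM), although it fell with library totals alone. The only subunit that fell, Atp6v1g2, was at 3.82, 3.23 and 4.74 CPM and then 2.05, 1.43 and 1.53 CPM, and the call was lost without precursor library 3 or immature library 2 or 3 (-1.06 to -1.10, adjusted p = 0.0549 to 0.0733).

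Enzymes and membrane proteins of the lysosome followed the same direction. Of 55 tested, 42 rose, 3 fell and 10 did not pass, and the median was 1.35. Hgsnat and Naglu, which break down heparan sulfate, went from 62.6, 67.7 and 73.9 to 750.4, 640.3 and 498 CPM and from 21.1, 26.9 and 20.4 to 164, 143 and 127 CPM. Pla2g15, a lysosomal phospholipase, rose by 2.96 ± 0.23, Scpep1, a serine carboxypeptidase, by 2.60 ± 0.20 and Gla, an alpha-galactosidase, by 2.30 ± 0.20. Lamp1, the main protein of the lysosomal membrane, went from 603, 602 and 642 to 3971, 2918 and 1939 CPM. Groups did not overlap for any of these 6 genes, as for 65.0% of all genes tested. The 3 that fell were Sort1, a sorting receptor, from 277, 220.04 and 329.8 to 145, 162 and 119 CPM, and the sulfatases Arsb and Arsg. For Arsb, the call was lost without immature library 1 (-1.87, adjusted p = 0.0531). For Arsg, the call was lost without precursor library 1, 2 or 3 or immature library 2 or 3 (-0.78 to -1.14, adjusted p = 0.054 to 0.125).

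Several of these genes share a palindrome in their promoters. CACGTG, an E-box that basic helix-loop-helix factors such as TFEB and MITF can bind, reads alike on both strands. In RefSeq promoters on GRCm38.p6 (250 bases before to 50 after the start site) it was present in 4 of 13 tested V-ATPase genes with a promoter (30.8%) and 11 of 43 lysosomal enzyme and membrane genes (25.6%), against 10.4% of the 9704 tested genes with a promoter and 7.24% of all 27025 promoters. It was in none of 25 neutrophil genes. Among genes at least 2-fold higher 10.9% held it, and among those at least 2-fold lower 9.38%. The windows before the start site of 5 genes that rose are shown because the motif recurs in them, 5′ to 3′ on the gene's strand with CACGTG in capitals.
Atp6v1a (chr16:44139358-44139417, minus strand): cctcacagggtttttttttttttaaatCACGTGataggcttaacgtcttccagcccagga
Atp6v0b (chr4:117887330-117887374, minus strand): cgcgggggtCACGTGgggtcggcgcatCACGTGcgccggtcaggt
Lamp1 (chr8:13159119-13159160, plus strand): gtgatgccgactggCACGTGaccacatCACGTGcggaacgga
Mcoln1 (chr8:3500447-3500506, plus strand): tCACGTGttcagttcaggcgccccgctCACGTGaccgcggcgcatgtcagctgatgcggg
Naglu (chr11:101069994-101070053, plus strand): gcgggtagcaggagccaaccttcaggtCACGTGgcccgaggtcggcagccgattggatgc
Atp6v0b, Lamp1 and Mcoln1, a calcium channel of lysosomes, hold the motif 2 times within these windows. A match describes the letters only. Mitf itself rose from 39.97, 35.8 and 28.3 to 101, 90.6 and 82.7 CPM (1.40 ± 0.20), while Tfeb and Tfe3, its relatives, did not pass (0.21 ± 0.22 and -0.05 ± 0.26).

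Receptors that take up dead cells, lipoproteins and debris rose in their majority, 21 of 34 tested against 7 that fell (median 1.78). Stab1, a scavenger receptor of tissue macrophages and sinus endothelium (chr14:31139013-31168641), went from 332, 402 and 133 to 5143, 4968 and 4320.3 CPM (4.06 ± 0.42, adjusted p = 3.56e-05). Colec12, a scavenger receptor with a collectin head, went from 5.86, 5.01 and 3.53 to 49.2, 53.3 and 44.9 CPM (3.35 ± 0.23). Cd36, which takes up fatty acids and oxidised lipoproteins, went from 113, 151 and 47.6 to 543, 1155 and 989.6 CPM. Precursor library 3 was the lowest of the precursors for Stab1, Colec12 and Cd36. Mertk, a kinase receptor for dead cells, rose by 2.42 ± 0.32, and the bridging proteins Pros1 and Mfge8, which link dying cells to such receptors, by 2.20 ± 0.25 and 2.21 ± 0.34. Msr1, the classical scavenger receptor A, did not pass (277, 303 and 119.8 against 99.3, 213 and 279 CPM). Cd300lf, a receptor for phosphatidylserine and lipids, fell from 89.7, 82.9 and 111 to 8.51, 5.63 and 6.52 CPM.

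Other members of the Cd300 family went up. A run of 6 neighbouring Cd300 genes on chromosome 11 (Cd300ld, Cd300c2, Cd300ld2, Cd300ld4, Cd300ld5 and Cd300ld3), singled out after the values were seen, rose as a whole, Cd300ld from 59.7, 52.7 and 51.1 to 332, 217 and 189 CPM and Cd300ld3 from 0.922, 2.18 and 2.09 to 28.4, 19.9 and 16 CPM. They are close copies, so reads may be split between them and the single values are uncertain.

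Of 22 tested complement genes 10 rose and 6 fell. The 3 chains of C1q, which tags dead cells and immune complexes, rose, with C1qc from 80.3, 131 and 48.6 to 1462, 1123 and 1056 CPM (3.80 ± 0.35). C3ar1, the receptor for the C3a fragment, went from 97.1, 112 and 35.4 to 746, 575 and 414 CPM. C3, the central component of the cascade, went the other way, from 498, 442 and 498 to 23.7, 13.1 and 12.1 CPM (-4.87 ± 0.38, adjusted p = 6.36e-06). Cd55, a membrane brake on complement, had 17.6, 17.3 and 20.7 CPM in precursors and 0 reads afterwards, a fall of at least 184-fold.

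Of 13 tested Fc receptor genes, whose products bind antibodies, 6 rose and 5 fell. Fcgr3 and Fcgr4, activating receptors for IgG, went from 261, 281 and 327 to 1431, 938 and 535 CPM and from 26.1, 22.3 and 18.2 to 149, 92.3 and 53.7 CPM. Fcgr1, the high-affinity receptor, passed narrowly (101, 122 and 36 against 256, 200.5 and 163 CPM, 1.26 ± 0.42, adjusted p = 0.0285), and the call was lost without precursor library 1 or 3 or immature library 1 or 2 (0.89 to 1.39, adjusted p = 0.053 to 0.0717). The genes that fell are known from B cells, mast cells and basophils, among them Fcmr, the receptor for IgM, which went from 37.5, 46.2 and 43 CPM to 0 reads and was at least 433-fold lower. The B cell markers fell to 0 reads in the same libraries.

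Cholesterol synthesis rose along almost the whole pathway. Of 26 tested genes 23 rose and none fell, and the median was 1.60. Hmgcs1, which makes HMG-CoA at the entry, went from 45.6, 45.6 and 51.5 to 177, 277 and 259 CPM (2.32 ± 0.28), and Lss, which closes the sterol rings, from 8.49, 12.6 and 11.8 to 62.9, 143 and 164 CPM (3.49 ± 0.34, adjusted p = 2.14e-05). Insig1, a sensor that holds sterol regulation in check, went from 36.2, 29.5 and 30.9 to 206, 286 and 261 CPM (2.96 ± 0.30). The regulators themselves did not pass, neither Srebf2 (143, 153 and 130.4 against 118, 164 and 164 CPM) nor its escort Scap (54.5, 56.8 and 50.01 against 48.5, 44.9 and 41.2 CPM), although Scap fell with library totals alone. The sum of the list was 2223 CPM in immature library 1, the library low in dividing-cell genes, and 3442 and 3674 CPM in libraries 2 and 3, against 989 to 1049 CPM in precursors. The part of that library's difference in the sterol values was not tested.

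The CCAAT box, read on both strands as CCAAT or ATTGG and bound by the factor NF-Y, was present in 16 of 19 promoters of tested cholesterol genes (84.2%), against 39.1% of promoters of tested genes and 37.9% of all. It was also in 39 of 54 promoters of replication and mitosis genes (72.2%), which did not rise. TCACNCCAC, searched as the motif of SREBP factors with N any base, was in 1 of the 19 cholesterol promoters (5.26%). The share was 1.04% over promoters of tested genes. Windows of 4 sterol genes that rose are given with the box in capitals.
Insig1 (chr5:28071169-28071227, plus strand): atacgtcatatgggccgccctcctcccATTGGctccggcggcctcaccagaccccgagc
Hmgcs1 (chr13:119690279-119690337, plus strand): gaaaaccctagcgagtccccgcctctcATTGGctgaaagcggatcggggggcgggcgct
Lss (chr10:76531516-76531574, plus strand): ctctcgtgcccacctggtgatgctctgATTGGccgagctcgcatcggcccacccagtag
Cyp51 (chr5:4104698-4104753, minus strand): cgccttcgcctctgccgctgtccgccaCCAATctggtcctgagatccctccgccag
The box lies on the opposite strand in the first 3 and on the gene's strand in Cyp51, which codes for the sterol demethylase.

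The exporters Abca1 and Abcg1, which load lipoproteins with cholesterol, rose as well and went from 45.3, 59.8 and 19.7 to 646, 471 and 341 CPM and from 23.6, 29.9 and 16.2 to 271, 326 and 221 CPM (3.54 ± 0.51 and 3.55 ± 0.43). Of 47 tested genes of lipid uptake, storage and efflux 24 rose, 5 fell and 18 did not pass (median 0.80). Scd1 and Fads1, which desaturate fatty acids, rose by 2.74 ± 0.28 and 1.96 ± 0.21, and the lipid droplet coats Plin2 and Plin3 by 1.47 ± 0.26 and 1.91 ± 0.30. Among the 5 that fell were enzymes that act on glycerides. Dgat1, which makes triglycerides, went from 42.2, 45.9 and 56.5 to 12.1, 15.2 and 11.9 CPM, and Mgll, which splits monoglycerides, from 19.4, 15.2 and 22.8 to 0.0788, 0 and 0.128 CPM.

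Iron and heme handling rose with 19 of 33 tested genes, against 6 that fell and 8 that did not pass (median 0.98). Fth1 and Ftl1, the ferritin chains that store iron, went from 924, 1172 and 518 to 3770.2, 2795 and 2082 CPM and from 2898, 3303 and 2279 to 6847, 7849 and 5544 CPM, although Ftl1 did not pass with limma on the deposited log2 RPM (0.28, adjusted p = 0.403). The iron exporter Slc40a1 (ferroportin) rose by 1.72 ± 0.39, the phagosomal importer Slc11a1 by 1.75 ± 0.25 and Blvra, which turns biliverdin into bilirubin, by 2.18 ± 0.18. Ltf and Lcn2, which bind iron or iron carriers outside the cell, fell with the other neutrophil granule genes described further on.

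Energy genes moved in both directions. In a list of citric acid cycle and related enzymes 17 of 28 tested genes rose and 3 fell (median 0.53). Sdhc, of the cycle, went from 46, 50.6 and 40.1 to 103, 121 and 154 CPM. Idh1, a related enzyme outside the cycle, went from 142, 121 and 178 to 508, 522 and 399 CPM. Acod1, which diverts the cycle to itaconate, fell from 32.1, 44.5 and 19.3 to 8.67, 4.4 and 3.83 CPM. The others that fell were dehydrogenases that rest on single libraries. For Mdh2, whose groups overlap, the call was lost without precursor library 1 or 2 or immature library 1 or 2 (-0.57 to -0.75, adjusted p = 0.0878 to 0.105). For Idh3a, the call was lost without precursor library 1 or 2 or immature library 2 (-1.21 to -1.22, adjusted p = 0.0511 to 0.0631). Of 76 nuclear subunits of oxidative phosphorylation 26 rose, 1 fell and 49 did not pass. Their called share, 35.5%, lies below the 49.2% over all genes, of which 22.5% rose. The 26 that rose came to 15 when precursor library 1 was left out and 16 when precursor library 2 was. They numbered 17 without immature library 2 and 11 with library totals alone. Glycolysis split into 9 that rose, 10 that fell and 17 that did not pass of 36. The called share, 52.8%, lies near the 49.2% over all genes. The 10 that fell became 6 without precursor library 2 or immature library 2. Aldoc (an aldolase) rose by 4.21 ± 0.40 and Pfkm (a phosphofructokinase) by 1.81 ± 0.20, while the glucose transporter Slc2a3 fell from 153, 154 and 242 to 11.9, 16.4 and 19 CPM.

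Amino acid genes split as well, 14 of 37 tested higher and 12 lower. Slc6a8, the creatine transporter, went from 5.33, 5.41 and 1.44 to 73.4, 78.8 and 65.3 CPM. Slc7a11, the cystine importer that feeds glutathione, went from 88.3, 94.2 and 76.8 to 4.02, 3.07 and 1.92 CPM (-4.82 ± 0.38), and Ass1, which makes argininosuccinate for arginine synthesis, from 94.2, 96.3 and 73.1 to 4.1, 4.71 and 3.96 CPM (-4.36 ± 0.40). For both the 2 groups were far apart.

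**Figure D3:**
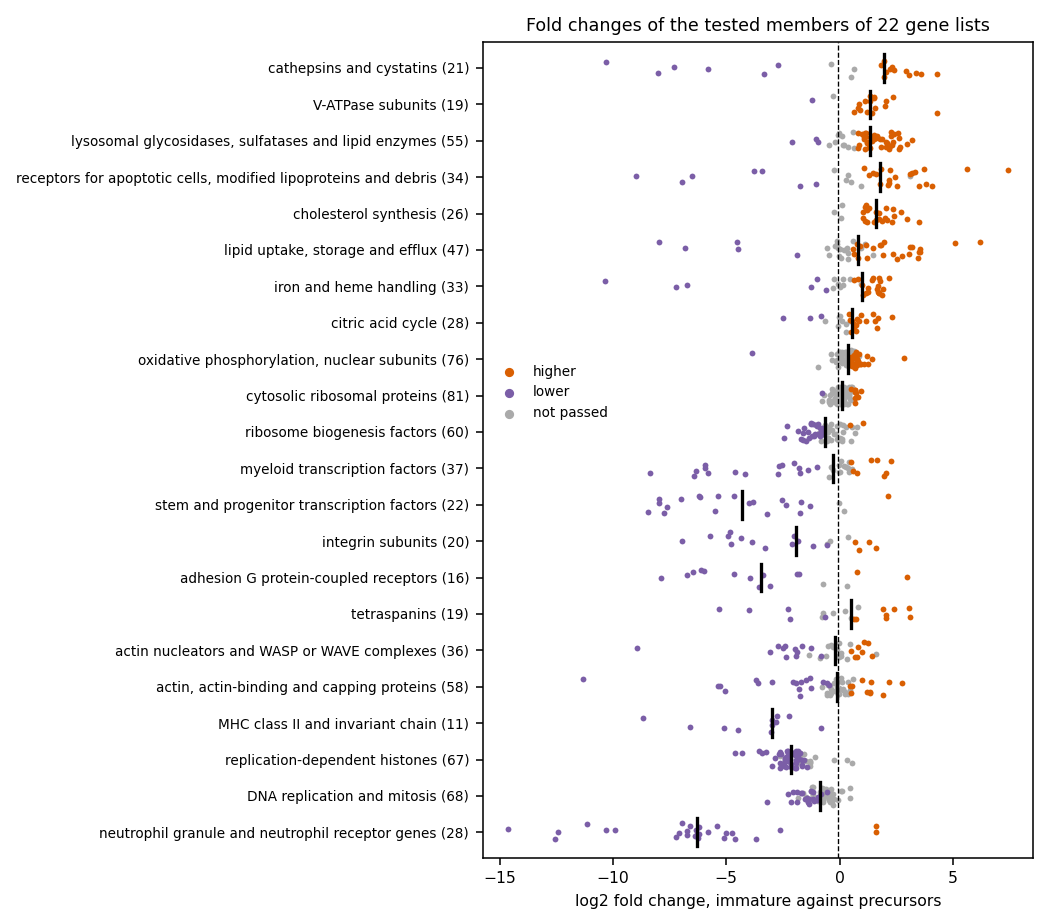
Log2 fold changes of the tested members of 22 gene lists, 1 point a gene, with the number tested in brackets; the black bars are list medians and the dashed line the median of all genes tested (-0.07). Lysosomal, uptake and cholesterol lists lie to the right (medians 1.34 to 1.96), and stem cell factors, histones and neutrophil genes to the left (medians -4.31, -2.13 and -6.31); points far to the left include genes at 0 reads, whose fitted values are no measure of size.

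Of 37 tested factors that set myeloid identity, 8 rose and 16 fell (median -0.30), beside 22.5% higher and 26.6% lower over all genes. Those that rose numbered 5 without precursor library 1. Rxra, the partner of lipid-sensing nuclear receptors, went from 27.3, 29 and 25.4 to 175, 131 and 88.6 CPM (2.27 ± 0.25, adjusted p = 4.44e-05), and Maf, a factor of resident macrophages, from 89.9, 122 and 60.8 to 326, 268 and 264 CPM (1.65 ± 0.31). Spi1 (PU.1), the master factor of the myeloid lineage, did not pass, with 214, 220.3 and 222 CPM in precursors and 263, 211 and 198 CPM in immature macrophages (0.04 ± 0.23, adjusted p = 0.91), and its groups overlapped. Nor did Cebpb (0.42 ± 0.21, but higher in a fit of only the 6 libraries, adjusted p = 0.0281) or Irf8 (-0.37 ± 0.23, but lower with library totals alone).

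Among the 16 factors that fell, Cebpe and Gfi1, which guide neutrophil maturation, went from 32.7, 34.6 and 47.1 to 1.02, 1.74 and 2.04 CPM and from 12, 15.6 and 14 to 1.1, 0.614 and 0.511 CPM. Runx2 went from 48.3, 50.2 and 57 to 0.709, 0.409 and 0.767 CPM (-6.35 ± 0.34). The Id proteins, which block helix-loop-helix factors, fell, with Id2 from 105, 101 and 98.4 to 18.7, 14.1 and 19.3 CPM and Id3 from 109.7, 113 and 118 to 1.89, 1.64 and 2.04 CPM. Irf4 and Klf4, factors of dendritic cells and of monocytes, fell as well (-2.67 ± 0.33 and -1.99 ± 0.32).

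Stem and progenitor factors fell almost throughout, 19 of 22 tested, with a median of -4.31 (-4.16 with the 2 members at 0 reads put at their bound). Nfe2, a factor of megakaryocytes and red cells, went from 93.5, 85.9 and 134 to 1.97, 2.76 and 2.94 CPM (-5.37 ± 0.40), and Bcl11a from 35.2, 34.8 and 36.4 to 0.315, 0 and 0.511 CPM. Lmo2, a bridging protein of stem cell complexes, was the exception and rose from 40.1, 36.9 and 37.5 to 189, 156 and 162 CPM (2.15 ± 0.23, adjusted p = 4.65e-05), with all immature libraries above all precursors. Its partners Lyl1 and Fli1 did not pass (0.22 ± 0.24 and -0.04 ± 0.20). The sum of the 4 progenitor markers fell in the same libraries.

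Receptors for blood growth factors and cytokines fell more often than they rose. Of 31 tested, 4 rose, 14 fell and 13 did not pass. Besides Csf1r, which rose by 1.67 ± 0.32, the genes that rose were the chains of the interleukin-10 receptor, Il10rb from 92.3, 97.6 and 84.4 to 356, 350.5 and 302 CPM and Il10ra by 1.21 ± 0.32, and Tgfbr2, a receptor for TGF-beta, from 128, 143 and 143 to 430.3, 327 and 302 CPM. Il17ra, the interleukin-17 receptor, fell from 408, 396 and 483 to 67.4, 55.9 and 49.1 CPM (-2.90 ± 0.20), and Il18rap from 68.1, 72.8 and 109 to 0.63, 0.307 and 1.15 CPM. Kit and Flt3, receptors of stem cells and of dendritic and lymphoid progenitors, fell from 42.2, 42.2 and 55.6 to 1.02, 0.716 and 0.128 CPM and from 70.00, 56.5 and 80.3 to 0.867, 1.74 and 2.56 CPM. Receptors for interferon gamma did not pass (Ifngr1 0.02 ± 0.22, Ifngr2 0.11 ± 0.21).

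**Figure D4:**
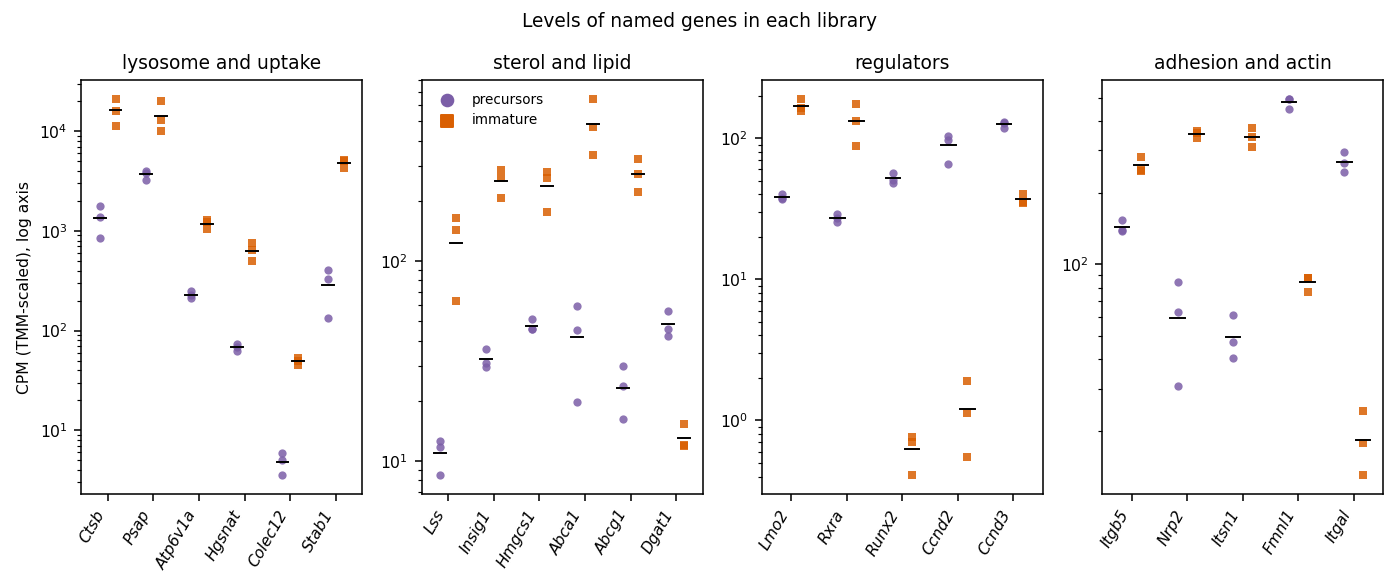
Level (CPM, log axis) of named genes in each of the 6 libraries; circles are precursors, squares immature macrophages and bars the group means (n = 3). None of the genes shown overlaps between the groups, as for 65.0% of all genes tested. Ctsb, Lss and Lmo2 are higher and Fmnl1, Itgal and Ccnd2 lower in immature macrophages.

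Integrin genes fell more often than they rose. Of 20 tested integrin subunits 4 rose, 13 fell and 3 did not pass (median -1.93). Itgb5, a partner of the alpha-v chain in binding matrix, went from 139, 154 and 138 to 283, 247 and 249 CPM (0.86 ± 0.18). Itgal, the alpha chain of the leukocyte integrin LFA-1, fell from 297, 265 and 243 to 13.1, 17.8 and 24.3 CPM (-3.87 ± 0.50, adjusted p = 0.000131), and its partner Itgb2 passed only narrowly (-0.54 ± 0.21, adjusted p = 0.0499), and the call was lost without precursor library 1, 2 or 3 or immature library 1, 2 or 3 (-0.47 to -0.59, adjusted p = 0.0951 to 0.133) or with the mouse number as a replicate block (adjusted p = 0.0793). Itgb7, the chain of gut-homing integrins, went from 186, 186 and 268 to 32.5, 47.7 and 77.6 CPM. Itgb3, which platelets and osteoclasts carry, went from 114, 136 and 233 to 8.51, 8.39 and 6.39 CPM, and the megakaryocyte markers fell beside it.

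The proteins that tie integrins to actin did not follow 1 direction, 11 of 46 higher and 21 lower. Tns3 (tensin 3) rose from 159, 187 and 148 to 384, 391 and 349 CPM (1.19 ± 0.18). Vcl (vinculin), which reinforces adhesion sites under force, fell from 165, 159 and 202 to 28.7, 38.2 and 55.9 CPM (-2.10 ± 0.29), and Actn1 (an actin crosslinker) and Vasp (which elongates filaments at adhesions) fell too (-1.32 ± 0.18 and -1.48 ± 0.20). Parvg, a linker of blood cells, went from 211, 223 and 225 to 19, 38.5 and 44.1 CPM. Rasgrp2, which switches on integrins of platelets and neutrophils, went from 83, 85.8 and 119.5 to 4.33, 3.58 and 4.47 CPM.

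In a list of selectin, immunoglobulin and cadherin receptors that also held other surface proteins, 12 of 33 tested rose and 19 fell (median -1.54). Of the genes named next, Nrp1, Nrp2, Ninj1 and Cd44 are of none of these kinds. Nrp1 and Nrp2, co-receptors for semaphorins and VEGF, went from 157, 156 and 123 to 446, 551 and 515 CPM and from 63.3, 84.1 and 30.8 to 363, 354 and 339.98 CPM. Ninj1, a membrane protein that breaks up dying cells, went from 89.8, 102 and 82.2 to 549, 381 and 243 CPM, and Icam1, a ligand of LFA-1, rose by 1.54 ± 0.26. Cd44, the hyaluronan receptor, fell from 477, 497 and 530.4 to 148, 149.7 and 163 CPM. Cdh1 (E-cadherin) went from 20.2, 16.8 and 14.4 CPM to 0 reads and was at least 174-fold lower.

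Of 25 tested semaphorin, plexin, slit and ephrin genes 8 rose and 10 fell. Among the plexins, the receptors of semaphorins, Plxnb2 went from 339, 382 and 258 to 1152, 1098 and 857 CPM, Plxnd1 rose by 1.20 ± 0.22 and Plxna2 by 3.43 ± 0.29. The semaphorins Sema4a and Sema4b fell from 142, 157 and 195 to 38.5, 28 and 22.8 CPM and from 47.6, 55.6 and 52.3 to 12.3, 11.3 and 9.71 CPM. Of 19 tested tetraspanins, which organise membrane domains, 8 rose and 5 fell, the latter 3 without immature library 1 or 2. Tspan4, a marker of migrasomes, went from 20.9, 25.7 and 16.2 to 205, 164 and 150.1 CPM and Cd81 from 28.5, 42.7 and 39.3 to 125, 152 and 173 CPM. Adhesion G protein-coupled receptors fell in 12 of 16 tested (median -3.48, or -3.42 with the member at 0 reads at its bound), with Adgrg1 from 24.9, 34.5 and 40.4 to 0.158, 0.102 and 0.128 CPM and Adgrg3 from 44.4, 35 and 53.1 to 0.788, 0.409 and 0.639 CPM. Of the 2 that rose, Adgre1 (F4/80) rose by 2.98 ± 0.35, and for Adgrl2 the call was lost without precursor library 1 or 3 or immature library 1 or 2 (0.57 to 0.77, adjusted p = 0.0832 to 0.125).

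Of 36 tested genes that start actin filaments or belong to the WASP or WAVE complexes, 8 rose, 12 fell and 16 did not pass. Their called share, 55.6%, lies near the 49.2% over all genes. By kind, 7 of 10 formin genes fell and 3 of 9 Arp2/3 genes rose, beside 26.6% lower and 22.5% higher over all genes. This grouping of 28 genes was made after the values were seen. None of the formins, which lay down straight filaments, rose, and their sum went from 1303 to 1309.8 CPM in precursors to 325 to 429.6 CPM in immature macrophages. Fmnl1, the formin of leukocytes, fell from 447, 493 and 491 to 76.7, 88.1 and 87.8 CPM (-2.50 ± 0.28, adjusted p = 5.87e-05), and Diaph1, the formin downstream of RhoA, from 372, 361 and 356 to 106, 105 and 137 CPM. Of 9 genes of the Arp2/3 complex, which branches filaments, 3 rose (Arpc3, Arpc1b and Arpc4) and none fell, and their sum went from 3027 to 3153 CPM to 3970.5 to 4635 CPM. Arpc1b went from 727, 748 and 697 to 1348, 1437 and 1479 CPM (0.97 ± 0.20). Actr2 and Actr3, the actin-like subunits, did not pass (0.06 ± 0.25 and -0.11 ± 0.16).

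Some paralogs of the WAVE complex, which activates Arp2/3, moved in opposite directions. Nckap1l, the subunit of blood cells, rose from 358, 385 and 430.4 to 873, 880.00 and 754 CPM (1.09 ± 0.18), while its relative Nckap1 fell from 4.74, 5.37 and 11.2 to 1.18, 1.43 and 1.53 CPM. Cyfip2 fell from 366, 379 and 444 to 36.4, 53.1 and 53.2 CPM (-3.06 ± 0.45, adjusted p = 0.000296), and its relative Cyfip1 rose narrowly (289, 291 and 216 against 337, 467 and 542 CPM, 0.76 ± 0.27, adjusted p = 0.038), and the call was lost without precursor library 1, 2 or 3 or immature library 2 or 3 (0.63 to 0.83, adjusted p = 0.0654 to 0.125).

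**Figure D5:**
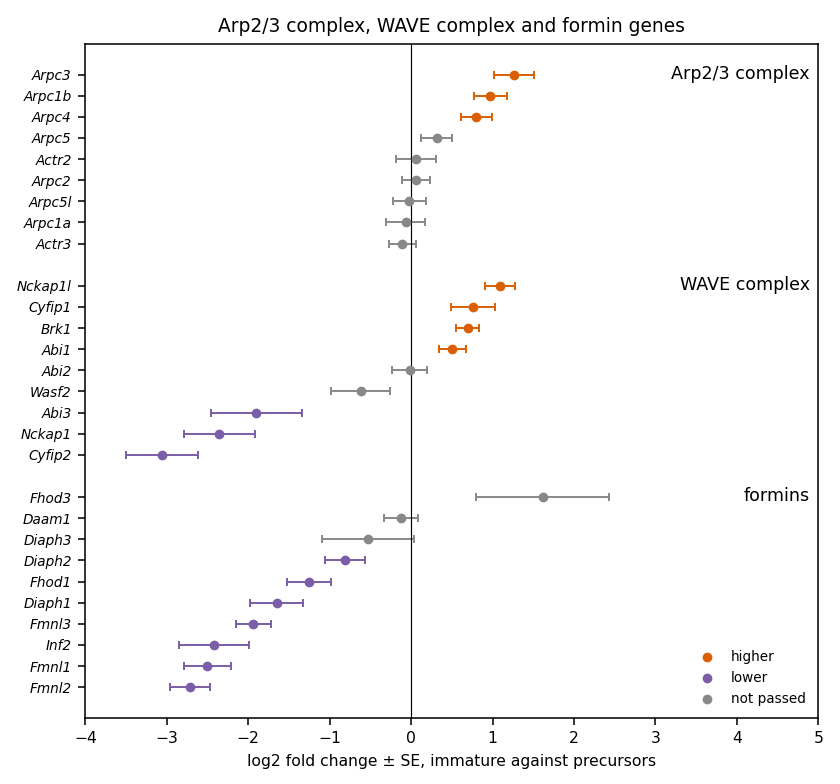
Log2 fold change (x axis) of the tested genes of the Arp2/3 complex, the WAVE complex and the formins in immature macrophages against precursors; points are estimates, bars the SE, colours the call. The 7 formins that fell lie at -0.81 to -2.72, and the 3 Arp2/3 genes that rose at 0.80 to 1.27. Over all genes tested 22.5% were higher and 26.6% lower.

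Some paralogs also parted among the actin-binding proteins, of which 11 of 58 tested rose, 18 fell and 29 did not pass. The called share, 50%, lies near the 49.2% over all genes. Coro1c rose from 188, 214 and 194 to 485, 612 and 483 CPM and Coro1a, the coronin of leukocytes, fell from 1839.5, 1912 and 2117 to 455, 555 and 730.3 CPM. Of the cofilin phosphatases, Ssh3 rose from 33.6, 38.8 and 42.8 to 174, 133 and 122 CPM and Ssh2 fell from 293, 253 and 315 to 44.8, 29 and 36 CPM. Capg, a capping protein of macrophages, went from 344, 418 and 257 to 1318, 1581 and 1686 CPM and Gsn (gelsolin), which severs filaments, rose by 1.21 ± 0.26. Ezr and Msn, which tie actin to the membrane, fell (-1.69 ± 0.21 and -1.78 ± 0.42). Fscn1 (fascin), which bundles filaments in dendritic cell protrusions, went from 29.1, 30.3 and 15.4 CPM to 0 reads and was at least 267-fold lower, and the 2 dendritic cell markers fell beside it, from 68.2 to 81.9 CPM to 0.767 to 1.65 CPM. Actb, the main actin, did not pass (9176, 10398 and 9413 against 6341, 12384 and 13551 CPM).

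Of the small GTPases that steer actin, and their inhibitors, 8 of 23 tested rose and 9 fell. RhoA and Rac1 did not pass (Rhoa 0.05 ± 0.16, Rac1 0.22 ± 0.28). Rhoc rose from 4.68, 7.87 and 7.71 to 39.5, 35.7 and 30.2 CPM and Rhoq from 23, 16.6 and 20.4 to 89.99, 79 and 53.2 CPM, while Rhou and Rhof fell from 27.2, 26.7 and 42.2 to 1.26, 1.33 and 0.895 CPM and from 26.7, 28.7 and 38.6 to 4.65, 8.39 and 6.26 CPM. Of the exchange factors that load these switches, 11 of 57 rose and 25 fell. Itsn1, a scaffold of endocytosis that activates Cdc42, went from 47.5, 61.5 and 40.5 to 309, 342 and 373 CPM (2.77 ± 0.23, adjusted p = 7.28e-06). Arhgef18 and Dock5 fell from 122, 111 and 146 to 8.75, 10.9 and 9.07 CPM and from 167, 164 and 189.7 to 25.9, 31.6 and 32 CPM.

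Motor and filament genes also moved in both directions. Myh9 and Myl12b, the heavy and a light chain of nonmuscle myosin II, fell from 2399.9, 2467 and 2448 to 548, 817 and 1131 CPM and from 522, 617 and 598 to 176, 156 and 131 CPM. Myo1e and Myo10, motors of adhesion sites and filopodia, rose from 31.4, 38.4 and 22.6 to 168, 181 and 179 CPM and from 18.2, 25.2 and 14.3 to 63.3, 68.1 and 68.4 CPM. Of 25 myosin genes 3 rose and 10 fell, and without immature library 1 those that rose numbered 5. Their called share, 52%, lies near the 49.2% over all genes. Sept8 rose from 19.5, 22.1 and 15.3 to 151, 129 and 127 CPM where Sept1 fell from 16.3, 22.9 and 29.5 to 0.552, 1.02 and 0.256 CPM. Lmna (lamin A), which stiffens the nucleus, rose from 113, 166 and 95.1 to 357, 539.9 and 802 CPM, and Lmnb1 (lamin B1), which tracks cell division, fell from 546, 489 and 373 to 13.8, 76.9 and 148 CPM (-2.56 ± 0.64), and its change was -3.33 without immature library 3. Immature library 1 had the lowest level of both lamins.

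Secreted proteases and their inhibitors moved in both directions. Of 13 tested matrix metalloproteinases and their inhibitors 4 rose and 6 fell. Mmp12, the elastase of macrophages, went from 8.69, 11.2 and 8.91 to 90.5, 81.6 and 78.2 CPM, and Timp2 rose from 35, 34.3 and 40.7 to 338, 223 and 148 CPM where Timp3 fell from 19.8, 22 and 36 to 0.473, 0.921 and 0.511 CPM. Mmp8, the collagenase of neutrophils, fell from 504, 428 and 629 to 78.7, 87.3 and 86.7 CPM. Of 15 tested ADAM and ADAMTS proteases 5 rose, 6 fell and 4 did not pass (median 0.08). Among those that rose were the membrane sheddases Adam9 and Adam17 (which releases TNF). They went from 44.7, 52.9 and 35.7 to 224, 276 and 255 CPM and from 171, 169.8 and 137 to 429, 347 and 318 CPM.

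A pair of serpins moved in opposite directions. Serpinb6a, an intracellular inhibitor of serine proteases, went from 18, 22.9 and 15.4 to 1343, 1067 and 814 CPM (5.83 ± 0.36, adjusted p = 2.37e-06), while Serpinb1a, which protects neutrophils from their own elastase, fell from 46.6, 41.4 and 63.3 to 2.36, 1.74 and 2.43 CPM (-4.53 ± 0.36). In the plasminogen system the protease Plau (urokinase) rose from 62.4, 83.3 and 26 to 114, 135 and 315 CPM, with immature library 3 the highest, and its receptor Plaur fell from 123, 121 and 109.8 to 21.4, 18.5 and 25.6 CPM (-2.44 ± 0.20). F10, coagulation factor X, fell from 43.1, 32.9 and 45.7 to 11.7, 8.29 and 7.92 CPM.

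Matrix and sugar-chain genes rose in 17 of 39 tested and fell in 12. Spp1 (osteopontin), a secreted adhesive protein, went from 216, 242 and 70.2 to 1799.6, 2567 and 2279.5 CPM (3.65 ± 0.44). Lamc1, a laminin chain, rose by 2.09 ± 0.24, and Sdc4, a heparan sulfate carrier at adhesion sites, by 2.38 ± 0.60. Vcan (versican), a proteoglycan made by monocytes, fell from 290.5, 139 and 176 to 5.36, 8.7 and 6.9 CPM, and Gpc1 (a glypican) from 73, 66.6 and 89.8 to 3.07, 4.2 and 5.37 CPM. The monocyte markers fell beside Vcan.

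Sensors of microbes changed in both directions. Of 46 tested, 15 rose, 10 fell and 21 did not pass. The called share, 54.3%, lies near the 49.2% over all genes. Those that rose numbered 9 without precursor library 1 or immature library 2 and 8 without precursor library 3, without immature library 1 or with library totals alone. Cd14, which hands lipopolysaccharide to TLR4, went from 19.95, 27.5 and 16.8 to 314, 206 and 201 CPM (3.49 ± 0.40), and Tlr7 and Tlr8, sensors of RNA in endosomes, went from 46.2, 45.5 and 36.2 to 258, 184 and 123 CPM and from 68.6, 61.8 and 62.5 to 244, 183 and 104 CPM. Tlr5, the flagellin receptor, and Tlr9, the sensor of DNA, fell from 11.2, 15.5 and 15.2 to 1.34, 1.74 and 1.53 CPM and from 20.02, 22.5 and 16.6 to 6.93, 4.5 and 3.58 CPM, although Tlr9 did not pass with limma on the deposited log2 RPM (-1.78, adjusted p = 0.116). Nlrp3, the inflammasome sensor, fell from 60.6, 67 and 68.6 to 33.6, 30.3 and 31.6 CPM while its protease Casp1 rose from 45.3, 47.3 and 47 to 92.9, 79.7 and 98.3 CPM. Myd88, the shared adaptor, did not pass (0.04 ± 0.16).

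Receptors that guide migration fell in 18 of 35 tested and rose in 10 (median -1.90). Those that rose included the nucleotide receptors P2ry6 (31.3, 47.6 and 29.3 to 229.7, 178 and 137 CPM) and P2ry12 (3.03, 4.89 and 4.25 to 16.5, 24.1 and 18.8 CPM) and Ptafr, for platelet-activating factor (102, 123 and 119 to 489.99, 379 and 293 CPM). Ccr1 and Ccr9, chemokine receptors of myeloid and of gut-homing cells, fell from 172, 143 and 199.96 to 8.83, 10.6 and 15.5 CPM and from 34.6, 34.5 and 29.3 to 0.315, 0.102 and 0.256 CPM, and Ltb4r1, for leukotriene B4, from 18.3, 20.8 and 28.6 to 0.788, 1.94 and 2.94 CPM. Of 18 tested chemokines 4 rose and 6 fell, the former 2 without precursor library 3 or immature library 1. Their called share, 55.6%, lies near the 49.2% over all genes. Ccl9 went from 244, 257 and 183 to 657, 688 and 662 CPM (1.55 ± 0.21), and Ppbp, made by platelets, fell from 56.7, 51.2 and 109.7 to 4.49, 3.99 and 2.94 CPM. All 11 tested genes of the MHC class II pathway fell (median -2.98), beside 26.6% lower over all genes. Their sum went from 2735 to 3713 CPM in precursors to 353 to 608 CPM in immature macrophages. H2-Oa and H2-Ob, the B cell modulator of peptide loading, fell from 13.1, 15.1 and 20.7 to 0.473, 0.102 and 0.895 CPM and from 52.9, 67.8 and 79.5 to 0.867, 0.409 and 0.767 CPM. H2-DMa, the loader itself, fell from 87.3, 76.8 and 100.2 to 24.3, 15.9 and 16.6 CPM. The B cell markers went to 0 reads in the same libraries.

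Genes of the neutrophil lineage fell to low levels. Of 28 tested granule and receptor genes 26 fell and 2 rose (median -6.31). S100a9 (chr3:90692632-90695721), a chain of calprotectin, went from 6816, 5390.1 and 8062 to 81.7, 53.2 and 76.4 CPM (-6.58 ± 0.34, adjusted p = 3.15e-06). Ngp (chr9:110419747-110423012), a granule protein, went from 2093, 1972 and 2992 to 36.4, 25.9 and 32.1 CPM, and Ltf (chr9:111019271-111042767), lactoferrin, from 2040.3, 1833 and 2510.2 to 22.2, 15.9 and 22.4 CPM. Camp, the cathelicidin, went from 514, 549 and 673 to 13.9, 10.03 and 16.6 CPM and Cd177 from 249.6, 259 and 363 to 4.49, 3.17 and 3.45 CPM. Ly6g, the surface marker of mouse neutrophils, went from 21.3, 19.7 and 24.5 CPM to 0 reads and was at least 215-fold lower. The 2 that rose were the lysozymes, which macrophages also make, Lyz2 from 7022, 7556 and 5831 to 31908, 17282 and 13846 CPM and Lyz1 from 55.1, 62.9 and 48.2 to 278, 119.5 and 102 CPM. They are close copies whose reads may be split, and without immature library 1 Lyz1 came to 1.00 (adjusted p = 0.0511).

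Neutrophil promoters were searched for motifs of myeloid factors. TTGCNNAA, a motif of C/EBP factors, with N any base and read on both strands, was present in 10 of 25 of their RefSeq promoters (40.0%), against 8.45% of those of tested genes and 10.8% of all 27025. Among genes at least 2-fold lower 9.95% held it. GAGGAAG, a motif of PU.1, was in 12 of the 25 on either strand (48.0%, against 13.8% of those of tested genes), and the CCAAT box in 13 (52.0%, against 39.1%). Windows of 4 genes that fell are given with the C/EBP motif in capitals, in the first 2 as TTGCNNAA and in the last 2 on the opposite strand.
S100a9 (chr3:90695923-90695971, minus strand): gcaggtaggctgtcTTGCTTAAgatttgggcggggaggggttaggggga
Lcn2 (chr2:32387921-32387982, minus strand): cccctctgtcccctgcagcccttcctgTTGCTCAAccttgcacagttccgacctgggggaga
Ngp (chr9:110419770-110419807, plus strand): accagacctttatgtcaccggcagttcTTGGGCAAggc
Ltf (chr9:111019190-111019251, plus strand): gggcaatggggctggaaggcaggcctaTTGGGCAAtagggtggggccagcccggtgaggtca
Lyz1, which rose, also holds the C/EBP motif.

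Of 18 tested monocyte genes 16 fell and none rose, and the median was -4.81 (-4.76 with the member at 0 reads at its bound). Plac8 and Hp (haptoglobin) fell from 169, 169 and 180.5 to 4.89, 2.46 and 2.94 CPM and from 301, 306 and 351 to 6.78, 3.99 and 5.11 CPM, Spn (CD43) from 248, 226 and 314 to 24.2, 39.6 and 38.7 CPM and Chil3, a chitinase-like protein, from 774, 723 and 905 to 33.2, 26.4 and 28.6 CPM. Genes of the other lineages followed. All 15 tested B lineage genes fell, 9 of them to 0 reads, among them Pou2af1, the B cell coactivator, from 22.5, 27.7 and 31.1 CPM (at least 273-fold lower), and Blk, a kinase of B cells, from 19, 30.4 and 34.3 CPM (at least 283-fold lower). All 10 eosinophil genes and all 9 mast cell and basophil genes fell, Hdc, which makes histamine, from 55.6, 59 and 64.5 to 0.552, 0.819 and 0.639 CPM. Of 17 megakaryocyte genes 16 fell, Gp5 from 13.4, 15.3 and 31.8 to 0.473, 0.716 and 0.383 CPM, but Pf4 did not pass (96.1, 148 and 237 against 102, 156 and 297 CPM), with overlapping groups. Of 20 dendritic cell genes 15 fell and 1 rose, Dpp4 from 31.9, 35.9 and 45.2 to 1.5, 1.13 and 0.767 CPM. The 1 that rose was Bst2, an interferon-induced antiviral protein not restricted to these cells, from 69.3, 105 and 39.5 to 227, 187 and 229 CPM.

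Some genes that another lineage is known for went up. Il7r, the interleukin-7 receptor of lymphoid cells, rose from 21.2, 25 and 26.2 to 72.9, 58.3 and 53.6 CPM (1.35 ± 0.38, adjusted p = 0.0127), while 8 of the 10 tested T and NK cell genes fell. Cd28, the T cell costimulator (chr1:60716800-60773359), went from 3.16, 3.76 and 3.85 to 166, 89.6 and 62.2 CPM (4.88 ± 0.41, adjusted p = 8.32e-06). The T and NK cell markers Cd3e and Nkg7 summed to 2.70 to 5.05 CPM in precursors and to 0 to 0.102 CPM in immature macrophages. Pmp22, a myelin protein (chr11:63128982-63159547), went from 3.82, 3.72 and 0.562 to 419, 337 and 289.6 CPM (6.97 ± 0.63), with precursor library 3 the lowest. Tfrc, the transferrin receptor listed with erythroid genes, rose from 106, 125 and 88.8 to 272, 221 and 258 CPM where the globins were at 0 reads.

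Most genes of replication and mitosis did not pass, 47 of 68 tested, while 21 fell and none rose (median -0.86). The share that fell lies near the 26.6% over all genes. The count that fell was 8 to 12 without precursor library 1, 2 or 3 or immature library 2 (12, 9, 12 and 8), 37 without immature library 3 and 35 with the mouse number as a replicate block. Mki67, the proliferation marker Ki-67, fell from 1178, 1013 and 1153 to 105, 331 and 359 CPM. E2f8, a repressor at the end of S phase, fell from 82.2, 76.8 and 77.4 to 4.18, 9.31 and 12.5 CPM and E2f2, an activator of S phase genes, from 124, 135 and 158 to 28.7, 47.8 and 55.6 CPM. Pcna and Ccnb1 did not pass, and their immature libraries were wide apart, with Ccnb1, the mitotic cyclin, at 19, 78.3 and 99.7 CPM in immature macrophages 1 to 3 against 83.2, 82.3 and 76.1 CPM in precursors.

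Replication-dependent histones fell in 50 of 67 tested and none rose (median -2.13), with a sum of 28811 to 30255 CPM in precursors and of 1862, 8350.01 and 10836 CPM in immature libraries 1 to 3. Hist1h1e, a linker histone, went from 2629, 2248 and 1969 to 150.04, 409.8 and 537 CPM. Histone genes share sequence, so single copies are uncertain. Of the D cyclins, which carry growth signals into the cycle, Ccnd2 fell from 104, 97.1 and 65.3 to 0.552, 1.13 and 1.92 CPM (-6.28 ± 0.41, adjusted p = 2.79e-06) and Ccnd3 from 131, 118 and 128 to 35, 35.4 and 40.5 CPM (-1.76 ± 0.16), whereas Ccnd1 did not pass and varied widely (141, 206 and 47.8 against 5.59, 61.3 and 243 CPM). Their partner Cdk6 fell from 181, 192 and 168 to 56.8, 80.4 and 112 CPM and Cdk4 did not pass (-0.06 ± 0.20). Cdkn1c (p57), an inhibitor of the cycle, rose from 0.79, 0.242 and 0.803 to 7.72, 5.32 and 7.67 CPM.

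Factors that build ribosomes fell in 26 of 60 tested, while 2 rose and 32 did not pass (median -0.63). Over all genes 26.6% were lower. Their sum was 4376 to 4830 CPM in precursors and 2933, 2938 and 4939 CPM in immature libraries 1 to 3, so immature library 3 lay above every precursor. Polr1a, the large subunit of RNA polymerase I, went from 95.4, 94.1 and 91.8 to 18.8, 28.8 and 32.1 CPM (-1.82 ± 0.23), and Nolc1, a nucleolar assembly factor, from 92.1, 102 and 64.5 to 20.6, 25.2 and 34.8 CPM. Npm1, an abundant nucleolar protein, did not pass (0.11 ± 0.18). The ribosomal proteins themselves moved little, 71 of 81 not passing (median 0.10, or -0.13 with library totals alone), and the 9 that rose became 3 when precursor library 1 was left out, 5 when precursor library 2 or immature library 1 was, and 1 with library totals alone. Of the 13 protein genes of the mitochondrial genome 10 fell, 5 without immature library 2 and 4 without immature library 3, and mitochondrial reads were 0.382 to 0.505% of precursor and 0.0924 to 0.149% of immature libraries.

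Gene models that lie inside other genes mostly fell. Of 576 tested models of the annotation classes TEC (transcripts yet to be tested) and sense intronic, 310 fell and 15 rose, and 499 overlapped a protein-coding gene, 462 of them on the same strand. Of the 310 that fell 282 overlapped such a gene, which fell as well for 158, rose for 14 and did not pass for 110. How the authors assigned reads to overlapping models is not given in the sources used here, so reads may be shared with the host gene. This holds for AC034099.1 (chr7:142371096-142382667), which went from 876, 1049 and 755 to 8244, 6658 and 5523 CPM and shares 6757 bases on the same strand with Ctsd, the cathepsin D gene, which went from 1645, 1915 and 1336 to 16288, 13658 and 11211 CPM. Of long noncoding genes, 4930430E12Rik, an antisense model whose reads cannot be told from those of an overlapping partner without strand, went from 0.593, 1.05 and 0.161 to 18.6, 27.8 and 39.1 CPM, with a log2 fold change of 5.42 ± 0.57, or 6.15 without precursor library 2.

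Some genes that fell lay side by side. The longest run of neighbouring tested genes that all fell at least 2-fold held 12 genes on chromosome 15, from Ptp4a3 to Ly6g, with the Ly6 surface antigens in it, among them Ly6e from 861, 1088 and 838 to 272, 219 and 147 CPM (its call was lost without immature library 3, -1.87, adjusted p = 0.0521) and Ly6a (Sca-1) from 63.5, 68.4 and 28.2 to 15.4, 12 and 11.5 CPM. A run of 8 on chromosome 6 held the Gimap GTPases of lymphocytes, with Gimap6 from 13.2, 13.9 and 16.1 to 0.315, 0.205 and 0.128 CPM. These runs were found by scanning all genes, and members of such families share sequence.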

How the data were processed

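The authors deposited a table of whole-number read counts per gene and a table of log2 RPM (library-scaled reads). Per the submitters' processing notes, HISAT2 2.0.5 and edgeR were used, and the builds GRCm38.p6 and GRCm39.p6 are named. For the counting program and strandedness, the sources used here give nothing. The authors' deposited list for this comparison, with their own p-values (FDR), held 7468 genes, and 6129 were called here too (82.1% of theirs and 93.3% of the calls here). Gene coordinates are those of the deposited table, and gene classes came from GENCODE on GRCm38.

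Counts were tested with edgeR 4.0.16 in R 4.3.3 (filterByExpr with a minimum count of 10, TMM scaling, quasi-likelihood F-test) on 9 libraries: the 6 compared and 3 of mature macrophages (120 ng/ml CSF-1 for 7 days), which share the estimate of spread. Benjamini-Hochberg adjustment ran over all 13359 genes tested, and a gene was called at an adjusted p under 0.05. The SE is the log2 fold change divided by the root of F. With 3 libraries a group, the p-values measure the spread between these libraries, which the titles assign to different mice.

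Where all libraries of a group had 0 reads, the fold is given as a lower bound from 3 reads over the group. Lists are described by counts and medians, with no test of the list. The lists and the genes in them were chosen with earlier results of these data known. The rule named the genes with the largest gain or loss in CPM, the highest and lowest fold changes above 50 CPM, any member of lists of up to 30 tested genes, the 5 members of longer lists with the lowest p, and a fixed set of lineage genes. Other members of longer lists that are named, such as Cd36, Vcl, Ninj1 and Msr1, were chosen after their values were seen. Alternatives, among them DESeq2 1.42.0 on the counts and limma 3.58.1 on the deposited log2 RPM, are given in the closing section. Some genes of the lists are not reported here by name.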

Additional observations from a re-analysis of the deposited data

How the results depend on the processing

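With edgeR's quasi-likelihood test the calls were 3009 higher and 3559 lower, with 1884 and 2738 at 2-fold or more. Stricter criteria gave fewer: an adjusted p under 0.001 left 1026 higher and 1159 lower (998 and 1145 by at least 2-fold), and a test of a change beyond 1.5-fold (glmTreat) left 1774 higher and 2393 lower. Leaving out 1 library at a time gave 2405 to 2934 higher and 2768 to 3333 lower, and 1765 to 1969 and 2416 to 2723 by at least 2-fold. DESeq2 gave 3084 higher and 3836 lower. With limma on the deposited log2 RPM there were 3662 higher and 2969 lower, and the median over all genes was 0.10 in place of -0.07. With limma 3 listed genes changed sign, none of them called in both fits. Clec4a4 and Cpt1b, which did not pass with edgeR (-0.06 and -0.04), passed as higher (1.27 and 0.62). Eef1a1, higher with edgeR (1.01, adjusted p = 0.00491), did not pass (-0.22). The cause was not tested. Limma also ended the calls of Arsg, Atp6v1g2, Cyfip1, Fcgr1, Ftl1 and Tlr9, and library totals alone ended those of Adgrl2, Cyfip1 and Fcgr1. With the mouse number as a replicate block 2760 were higher and 3382 lower. Same-numbered precursor and immature libraries deviated from their group means with correlations of -0.03, 0.01 and -0.13, and other pairs with -0.10 to 0.12. All mice were of the same strain, sex and age range, so libraries of 1 mouse need not resemble each other. These correlations therefore cannot decide whether same-numbered libraries came from the same mouse. Beside the values given with the results, the block ended no call of a gene named there. Depth limits rare genes, since 1 read is 0.128 CPM in immature library 3, the smallest. Lower bounds from 3 reads cover counting error only.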
